A study of Mus musculus with 2 samples.

Results

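This report describes 9 Wnt ligands, Wnt3, Wnt4, Wnt5a, Wnt6, Wnt7b, Wnt10a, Wnt10b, Wnt11 and Wnt16, in single-cell RNA sequencing of newborn mouse back skin. The members were the rows of the gene list that carry these symbols, and all 9 were found among 56694 genes, of which 19 are Wnt genes. Their transcripts were counted in epidermal, follicle and dermal cells of 2 libraries.

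Wnt proteins are secreted, lipid-modified signals that act over short distances. Porcn attaches the lipid and Wls carries the ligand to the cell surface, where Frizzled receptors and their co-receptors bind it. In the canonical branch this stabilises beta-catenin, which acts with Lef1 and the Tcf factors on target genes. In the other branches ligands such as Wnt5a and Wnt11 act through Ror and Ryk receptors on cell polarity and movement. In skin, Wnt signalling is known for starting hair follicles, for driving hair shaft formation in the matrix and for maintaining the basal epidermis, and the Hedgehog pathway, with its transcription factor Gli2, acts alongside it in the growing follicle.

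The control library (genotype label WT) and the Gli2 EKO library each came from back skin at postnatal day 2. Gli2 EKO mice carry K14Cretg;Gli2 fl/fl, so that Cre under the keratin 14 promoter removes floxed Gli2 from keratinocytes from embryonic day 10, while dermal cells keep it. The study's methods describe its control mice as floxed littermates without Cre, on a C57Bl/6N background. How many animals went into each library was not stated. With 1 library per genotype, no difference between genotypes can be tested. All differences given here are between these 2 libraries, and the intervals, all at 95%, cover counting error only.

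The control library held 6326 cell barcodes and 71021773 unique molecular identifiers (UMIs, one per captured transcript), and the Gli2 EKO library 4296 and 48866478, with 0 barcodes in common. After filtering, 4456 control and 3093 Gli2 EKO cells remained, with medians of 11806 and 11909 UMIs. Transcripts were read at their 3′ ends, and which exon is deleted was not stated, so the Gli2 UMIs do not check the deletion. Gli2 stood at 46.8 UMIs per 1000000 UMIs of the same cells (counts per 1000000, CPM) in epidermal cells of the control library and at 75.5 CPM in those of Gli2 EKO, and at 94.0 and 87.3 CPM in follicle cells.

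Cells were grouped by clustering without the Wnt pathway genes, and clusters were named from marker genes, so that each name below means cells like that type. Interfollicular epidermis (IFE) basal cells carried Krt5, Krt14, Thbs1 and Col17a1, IFE suprabasal cells Krt1 and Krt10, hair matrix cells Shh, Myb and Edar, inner root sheath cells Krt71 and Krt25, hair shaft cells S100a3 and Krt35, and dermal papilla cells Corin. Epidermal cells (IFE basal and suprabasal) numbered 760 in control and 1030 in Gli2 EKO, which was 17.1% and 33.3% of the cells kept. Follicle cells numbered 2364 and 1187, or 53.1% and 38.4%. Although the tissue is labelled as epidermis, fibroblasts and dermal papilla cells made up 852 control and 645 Gli2 EKO cells, or 19.1% and 20.9%. Clusters that met no name held 213 and 88 cells, of which 199 and 85 were 1 keratinocyte cluster with Tagln and Acta2, genes of the mural marker list, among its leading genes.

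On chromosome 1 (GRCm39), Wnt6 (74810922 to 74824975) and Wnt10a (74830675 to 74844355) follow each other on the plus strand with 5699 bases between them. On chromosome 15, Wnt10b (98668593 to 98690045, minus strand) overlaps Wnt1 on the opposite strand by 2308 bases, and Wnt1 had 3 UMIs against 1038 for Wnt10b. Wnt3 (chromosome 11, 103664976 to 103708853) lies 24320 bases from Wnt9b, which had 8 UMIs. Wnt4 lies on chromosome 4 (137004373 to 137027037), Wnt5a on chromosome 14 (28226495 to 28249405), Wnt7b on chromosome 15 (85419638 to 85466674), Wnt11 on chromosome 7 (98484319 to 98504402) and Wnt16 on chromosome 6 (22288221 to 22298521).

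RefSeq promoter windows, from 250 bases before to 50 bases after the start, were found for 6 members in GRCm38.p6 (7 windows, 2 of them for Wnt11). Wnt3, Wnt4, Wnt6, Wnt10b, Wnt11 and Wnt16 matched. Because Hedgehog signalling acts through Gli factors and Wnt signalling through Tcf and Lef factors, both strands of each window were searched for the Gli motif GACCACCCA, the Tcf/Lef motif CTTTGAT and the TATA box TATAAA. The Gli motif was in 0 of 7 windows and in 0.253% of all 32851 promoter windows. The Tcf/Lef motif and the TATA box were each in 1 window, the first of Wnt11, against 3.73% and 13.6% of all windows. That window is shown because it holds both motifs, and the Wnt16 window because Wnt16 had the highest ratio between the libraries of the 9 members in the hair matrix. Motifs are in capitals, and the Wnt16 window has none.
Wnt11, chr7:98834862-98835161, plus strand: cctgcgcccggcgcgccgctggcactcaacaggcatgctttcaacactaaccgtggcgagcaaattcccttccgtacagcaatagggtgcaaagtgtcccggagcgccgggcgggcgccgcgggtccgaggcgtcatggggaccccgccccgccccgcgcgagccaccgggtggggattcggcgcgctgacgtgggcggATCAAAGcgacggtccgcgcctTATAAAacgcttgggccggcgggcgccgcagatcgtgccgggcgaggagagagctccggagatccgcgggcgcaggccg
Wnt16, chr6:22287977-22288276, plus strand: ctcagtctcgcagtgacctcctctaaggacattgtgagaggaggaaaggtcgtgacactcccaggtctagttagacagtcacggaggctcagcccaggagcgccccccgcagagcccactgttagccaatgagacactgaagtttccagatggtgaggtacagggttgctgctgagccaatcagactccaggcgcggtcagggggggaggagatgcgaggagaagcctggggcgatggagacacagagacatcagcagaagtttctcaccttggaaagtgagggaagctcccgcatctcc
The windows also differed in CpG pairs, from 10 for Wnt16 to 51 for Wnt4, where the median of all windows was 7. A match or its absence says only which letters these windows hold.

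Over the cells kept, Wnt4 gave 19105 UMIs, more than any other member. Wnt5a followed with 5134, Wnt6 with 4838, Wnt3 with 3791, Wnt10a with 3252, Wnt16 with 3059, Wnt7b with 2287, Wnt11 with 1326 and Wnt10b with 1038. These are numbers of molecules captured by a 3′ protocol and were not scaled by transcript length.

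The members divided into ligands of the basal epidermis, ligands that the basal epidermis shared with the hair-forming cells, and ligands of the dermis and follicle. The plot of UMI shares shows this division. Epidermal cells held 85.3% of Wnt16, 84.3% of Wnt3, 80.9% of Wnt7b, 76.1% of Wnt4 and 66.1% of Wnt10a UMIs over both libraries. For Wnt6 and Wnt10b the larger part differed between the libraries. In control the follicle held 60.9% of Wnt6 and 70.9% of Wnt10b UMIs, and the epidermis 29.4% and 26.5%. In Gli2 EKO the epidermis held 55.8% and 60.4%, and the follicle 38.2% of either. Wnt5a and Wnt11 were nearly absent from the epidermis, with 2.1% and 3.7%, and were split between follicle (52.1% and 46.2%) and dermis (44.6% and 45.2%). These shares depend on how many cells of each kind were captured, and the epidermal share of cells was larger in the Gli2 EKO library.

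**Figure D1:**
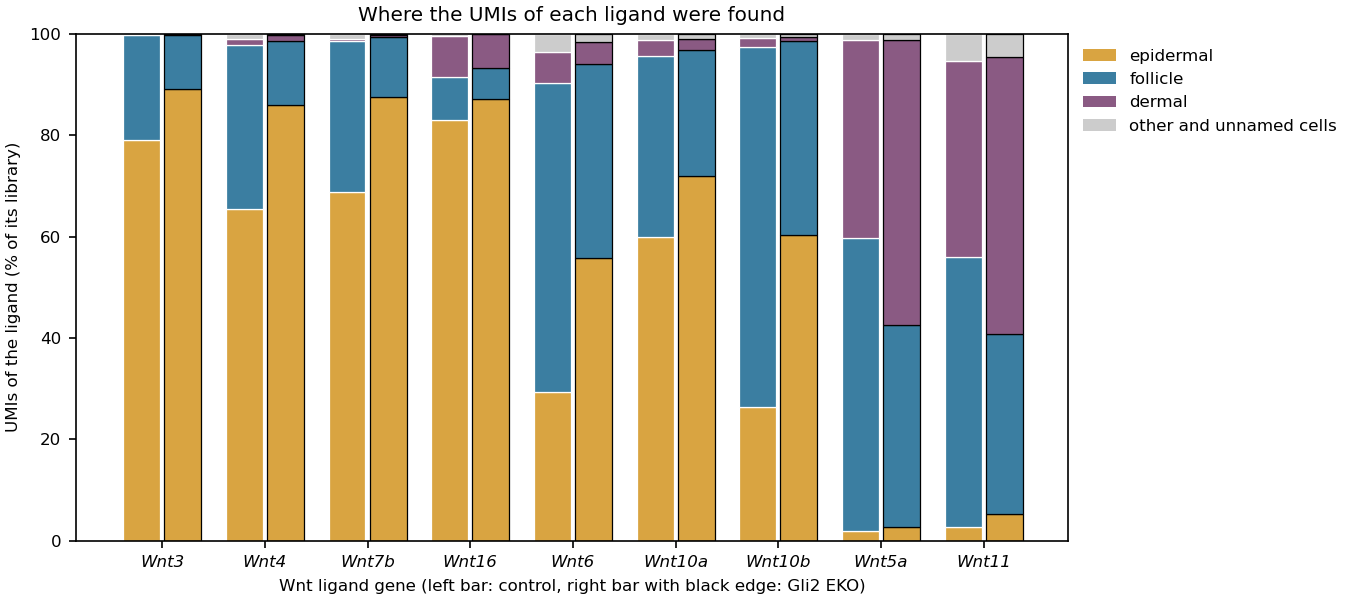
Share of each Wnt ligand's UMIs (percent) found in epidermal, follicle, dermal and other cells, in the control and the Gli2 EKO library. Wnt16, Wnt3, Wnt7b and Wnt4 lie mostly in epidermal cells, Wnt5a and Wnt11 in follicle and dermal cells, and the epidermal part is larger in the Gli2 EKO library for all 9 members.

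Summed over the 9 members, IFE basal cells carried the most Wnt transcripts. Their total was 1031 CPM in the control and 1213 CPM in the Gli2 EKO library. A basal cell had UMIs of 3.97 different members on average in control and 4.51 in Gli2 EKO. Early hair lineage cells followed with 707 and 868 CPM, and dermal papilla cells with 634 and 694 CPM. Hair matrix cells had 480 and 457 CPM and hair shaft cells 389 and 538 CPM, 2 classes whose intervals overlapped in Gli2 EKO. Outer root sheath cells, although epithelial, had only 92.9 and 102 CPM.

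**Figure D2:**
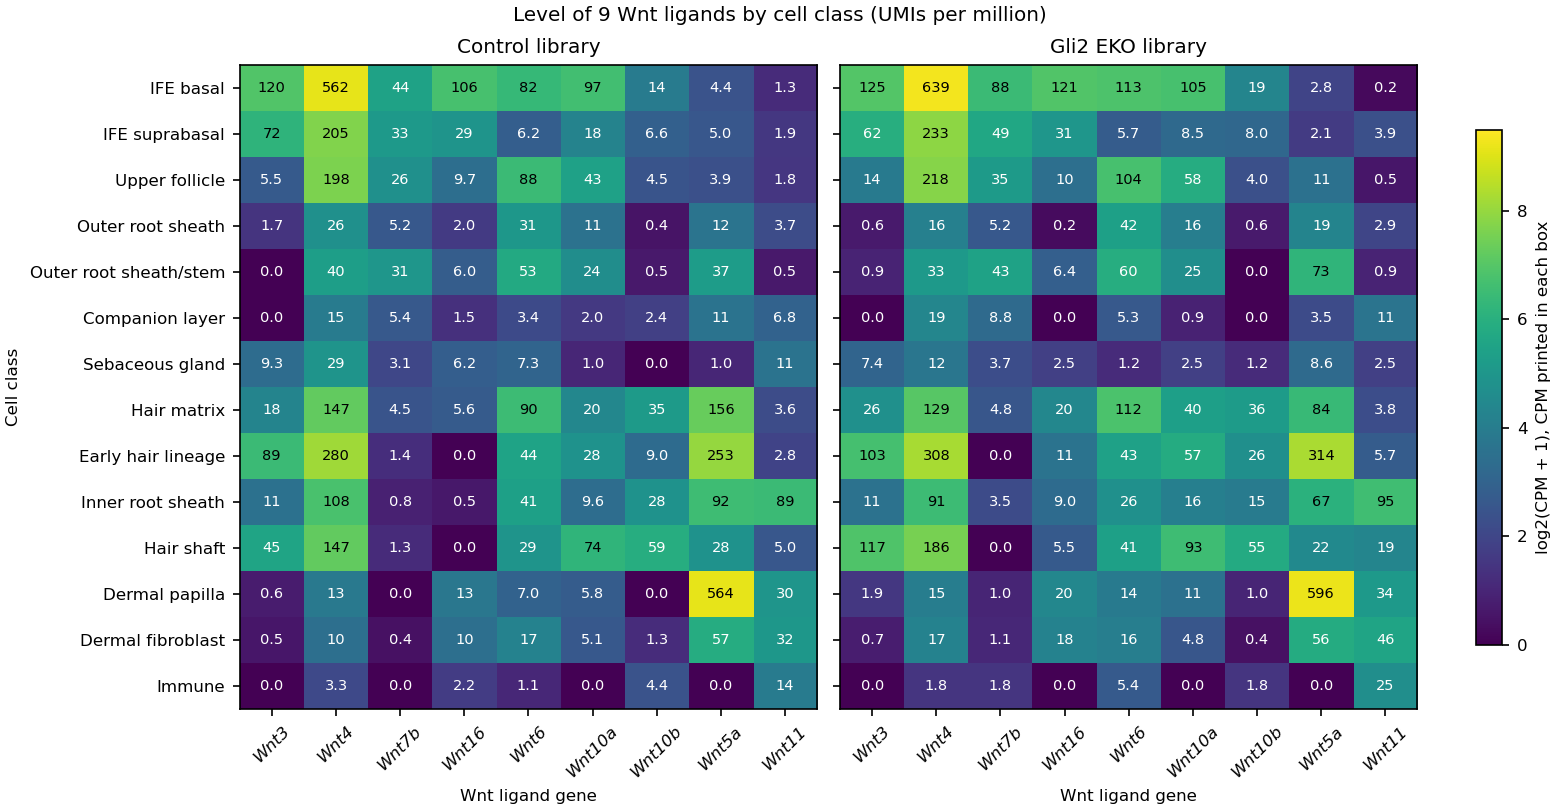
Level of each Wnt ligand (CPM, colour on a log scale) by cell class in the control and the Gli2 EKO library. Wnt4 is highest in IFE basal cells (562 and 639 CPM), Wnt5a in dermal papilla cells (564 and 596 CPM) and Wnt11 in inner root sheath cells (88.8 and 94.9 CPM).

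Wnt4, a ligand best known from kidney and reproductive tract development, was the most frequent Wnt transcript of the basal epidermis. IFE basal cells had 4946 control UMIs, or 562 CPM (interval 547 to 578), and 6985 Gli2 EKO UMIs, or 639 CPM (624 to 654). The ratio was 0.18 on the log2 scale (0.13 to 0.24). Wnt4 was lower in the early hair lineage (280 and 308 CPM), the IFE suprabasal cells (205 and 233 CPM) and the upper follicle (198 and 218 CPM), and the outer root sheath had 26.1 and 16.5 CPM. The counting intervals of suprabasal and upper follicle cells overlapped in both libraries. Within the basal epidermis, Wnt4 was higher in the non-dividing cluster led by Sox6, H19 and Thbs1 (754 and 821 CPM) than in the dividing cluster led by H1f5 and Ube2c (405 and 454 CPM).

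Wnt3, a canonical ligand that is needed for gastrulation in the mouse, was next in the basal epidermis after Wnt4 in UMI number. IFE basal cells had 120 CPM in control (112 to 127) and 125 CPM in Gli2 EKO (118 to 132), a log2 ratio of 0.06 (-0.06 to 0.18). Outside the IFE it was found in the early hair lineage (88.7 and 103 CPM) and the hair shaft, and it was almost missing from the outer root sheath (1.72 and 0.625 CPM). No Wnt3 UMI was found in companion layer, immune, endothelial, mural, melanocyte or Schwann cells of either library. In hair shaft cells Wnt3 stood at 45.3 CPM in control (36 UMIs in 65 cells) and 117 CPM in Gli2 EKO (43 UMIs in 30 cells), a log2 ratio of 1.37 (0.70 to 2.05).

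Wnt16, a ligand known mainly from bone and joint, was almost as frequent as Wnt3 in the basal layer. IFE basal cells had 106 CPM in control (99.1 to 113) and 121 CPM in Gli2 EKO (115 to 128). It stood at 29.1 and 30.5 CPM in suprabasal cells, at 9.71 and 10.02 CPM in the upper follicle and at 2.04 and 0.208 CPM in the outer root sheath, the latter from 19 and 1 UMIs. Basal IFE cells were thus far above every follicle class. Wnt16 was also found in the dermis, where 1 fibroblast cluster led by Lum and Fgfr4 held 54 of 104 control and 76 of 119 Gli2 EKO UMIs, or 47.4 and 67.0 CPM. A second dermal site was the dermal papilla cluster led by Clstn2 and Corin, with 26.1 and 29.8 CPM.

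Wnt7b, a ligand known for lung and vessel development and for hair growth, had a wider epithelial range. Its order was the same in both libraries, with IFE basal cells first (44.0 and 88.4 CPM), suprabasal cells second (33.0 and 49.1 CPM), then outer root sheath/stem cells (30.8 and 43.2 CPM) and then the upper follicle (26.4 and 35.1 CPM). Neighbours among the last 3 of these did not differ beyond counting error. The main outer root sheath had 5.16 and 5.21 CPM and the matrix 4.48 and 4.83 CPM.

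Wnt10a, which is mutated in inherited disorders of teeth, hair and skin, joined the basal epidermis to the hair shaft. IFE basal cells had 97.3 and 105 CPM, and hair shaft cells 74.2 and 92.8 CPM, and their intervals overlapped in both libraries. Upper follicle cells followed with 42.8 and 57.6 CPM of Wnt10a. Its neighbour on the chromosome, Wnt6, shared the basal and upper follicle cells but had 28.9 and 41.0 CPM in the hair shaft. Wnt6 stood at 81.7 and 113 CPM in IFE basal, 90.1 and 112 CPM in hair matrix and 88.3 and 104 CPM in upper follicle cells, 3 classes that did not differ beyond counting error in their order, and only at 6.17 and 5.74 CPM in suprabasal cells, where Wnt10a had 17.9 and 8.46 CPM. Within the basal epidermis Wnt6 was higher in the dividing cluster in control, with 99.6 CPM against 59.8 CPM in the non-dividing cluster. In control, Wnt10a had 87.9 CPM in the dividing and 109 CPM in the non-dividing cluster.

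Wnt10b, a canonical ligand that promotes hair growth, was highest in the hair-forming cells. Hair shaft cells had 59.1 and 54.6 CPM, matrix cells 34.8 and 35.9 CPM, and IFE basal cells 14.3 and 19.1 CPM. It was listed with few UMIs in the dermis, 11 in control and 3 in Gli2 EKO.

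Wnt5a, the best-studied ligand of the beta-catenin-independent branch, marked the dermal papilla, the mesenchymal signalling centre at the base of the follicle. Dermal papilla cells had 883 control UMIs, or 564 CPM (528 to 603), and 616 Gli2 EKO UMIs, or 596 CPM (550 to 645). Both papilla clusters carried it, with 619 and 688 CPM in one and 512 and 427 CPM in the other. In the epithelium it was highest in the early hair lineage, with 253 and 314 CPM, and then in the matrix, with 156 and 84.2 CPM. The inner root sheath had 91.6 and 66.5 CPM and the outer root sheath/stem cells 37.4 and 73.4 CPM. The hair shaft had only 27.7 and 21.8 CPM, and IFE basal cells had 4.43 and 2.83 CPM.

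Wnt11, a second ligand of that branch, was highest in the inner root sheath with 88.8 CPM in control (79.4 to 99.0) and 94.9 CPM in Gli2 EKO (79.7 to 112). Fibroblasts followed with 31.6 and 45.7 CPM and dermal papilla cells with 30.0 and 33.9 CPM, 2 classes whose intervals overlapped in both libraries. Immune cells, with 14.3 CPM (7.61 to 24.4) and 25.1 CPM (13.7 to 42.2), overlapped the dermal papilla in both libraries, so that the papilla level of Wnt11 was not apart from that of a class used here as background. Among fibroblasts the cluster led by Lum and Fgfr4 had the most, 67.5 and 98.7 CPM, the same cluster that held most dermal Wnt16. The early hair lineage, which shared high Wnt5a with the inner root sheath, had 2.77 and 5.71 CPM of Wnt11.

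RNA of lysed cells can enter the droplets of other cells, and its part in these levels was not tested. The ratio of both ligands to the fibroblast collagen Col1a1 is given beside them. Wnt5a stood at 6.26 UMIs per 1000 Col1a1 UMIs in control fibroblasts and 2011 in control papilla cells, against 4359 in control matrix cells and 5448 in the early hair lineage. In Gli2 EKO the same ratios were 7.11, 1391, 3211 and 9167. The early hair lineage values rested on only 67 and 12 Col1a1 UMIs. Wnt11 stood at 3.44 and 5.77 UMIs per 1000 Col1a1 UMIs in fibroblasts, at 107 and 79.0 in papilla cells and at 2407 and 2978 in the inner root sheath. In matrix cells with no UMI of Col1a1, Col3a1 or Lum, Wnt5a had 152 CPM in control (138 cells) and 63.1 CPM in Gli2 EKO (64 cells). In inner root sheath cells without these UMIs, Wnt11 had 57.6 and 68.9 CPM, and in immune cells without them 17.7 and 17.4 CPM.

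Shares of cells with a UMI were compared after each cell had been thinned to 2000 UMIs, which left out 7 control and 19 Gli2 EKO cells. In IFE basal cells, Wnt4 was then seen in 60.0% of the control cells and 63.6% of the Gli2 EKO cells, and Wnt5a in 60.9% and 66.9% of dermal papilla cells. All other members were found in fewer than these shares of cells in their leading class, such as Wnt16 in 16.7% and 22.4% of IFE basal cells. In immune and endothelial cells together, which served as background (median depth 9697 and 11518 UMIs before thinning), the 9 members ranged from 0% to 1.96%. Before thinning, the IFE basal median was 15373 UMIs in control and 14436 in Gli2 EKO.

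To see whether single cells carried several ligands, cells were thinned to 5000 UMIs and the share with both members of a pair was set beside the product of the single shares. In control IFE basal cells, Wnt3 and Wnt16 were found together in 19.8% of 511 cells, 1.53 times that product, and in Gli2 EKO in 21.4% of 679 cells, 1.16 times. For Wnt3 and Wnt6 the same value was 0.822 in control and 0.961 in Gli2 EKO. In the matrix, it was 1.80 and 1.32 for Wnt6 with Wnt10b, 1.71 and 1.41 for Wnt6 with Wnt10a, and 0.859 and 0.858 for Wnt5a with Wnt6. The highest value in the control matrix was 3.27, for Wnt3 with Wnt10b from 10 cells, and it was 2.55 in Gli2 EKO from 8 cells. For that pair the interval of the joint share lay above the product in both libraries. For Wnt3 with Wnt16, Wnt6 with Wnt10b and Wnt6 with Wnt10a it did so in control only. At the other values given here it included the product. Cells of a library are not replicates, so these are descriptions of the 2 libraries.

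For the comparison of the libraries a member was counted as higher or lower where its CPM ratio reached 1.5-fold, among genes for which the 2 libraries together gave 20 UMIs or more. In epidermal cells 1 of 9 members was higher in Gli2 EKO (Wnt7b) and 1 lower (Wnt5a), where 4.91% and 10% of all genes were. In follicle cells 1 was higher (Wnt16) and 1 lower (Wnt5a), against 6.29% and 8.34% of genes. In dermal cells 2 of 6 members with enough UMIs were higher (Wnt4 and Wnt16) and 0 lower, against 5.36% and 7.03%. The other members with enough UMIs were within 1.5-fold. Wnt10a in follicle cells lay near that limit. Its log2 ratio ranged from 0.579 to 0.655 over the settings, so it passed 1.5-fold under some. In dermal cells Wnt3, Wnt7b and Wnt10b had too few to be counted, with 5 and 6, 3 and 7, and 11 and 3 UMIs. With so few members, 1 called gene already makes a larger share than the background, so the counts alone say little. Epidermal Wnt5a rested on 65 and 45 UMIs (4.65 and 2.56 CPM), and its log2 ratio of -0.86 was -0.34 with the automatic doublet threshold.

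**Figure D3:**
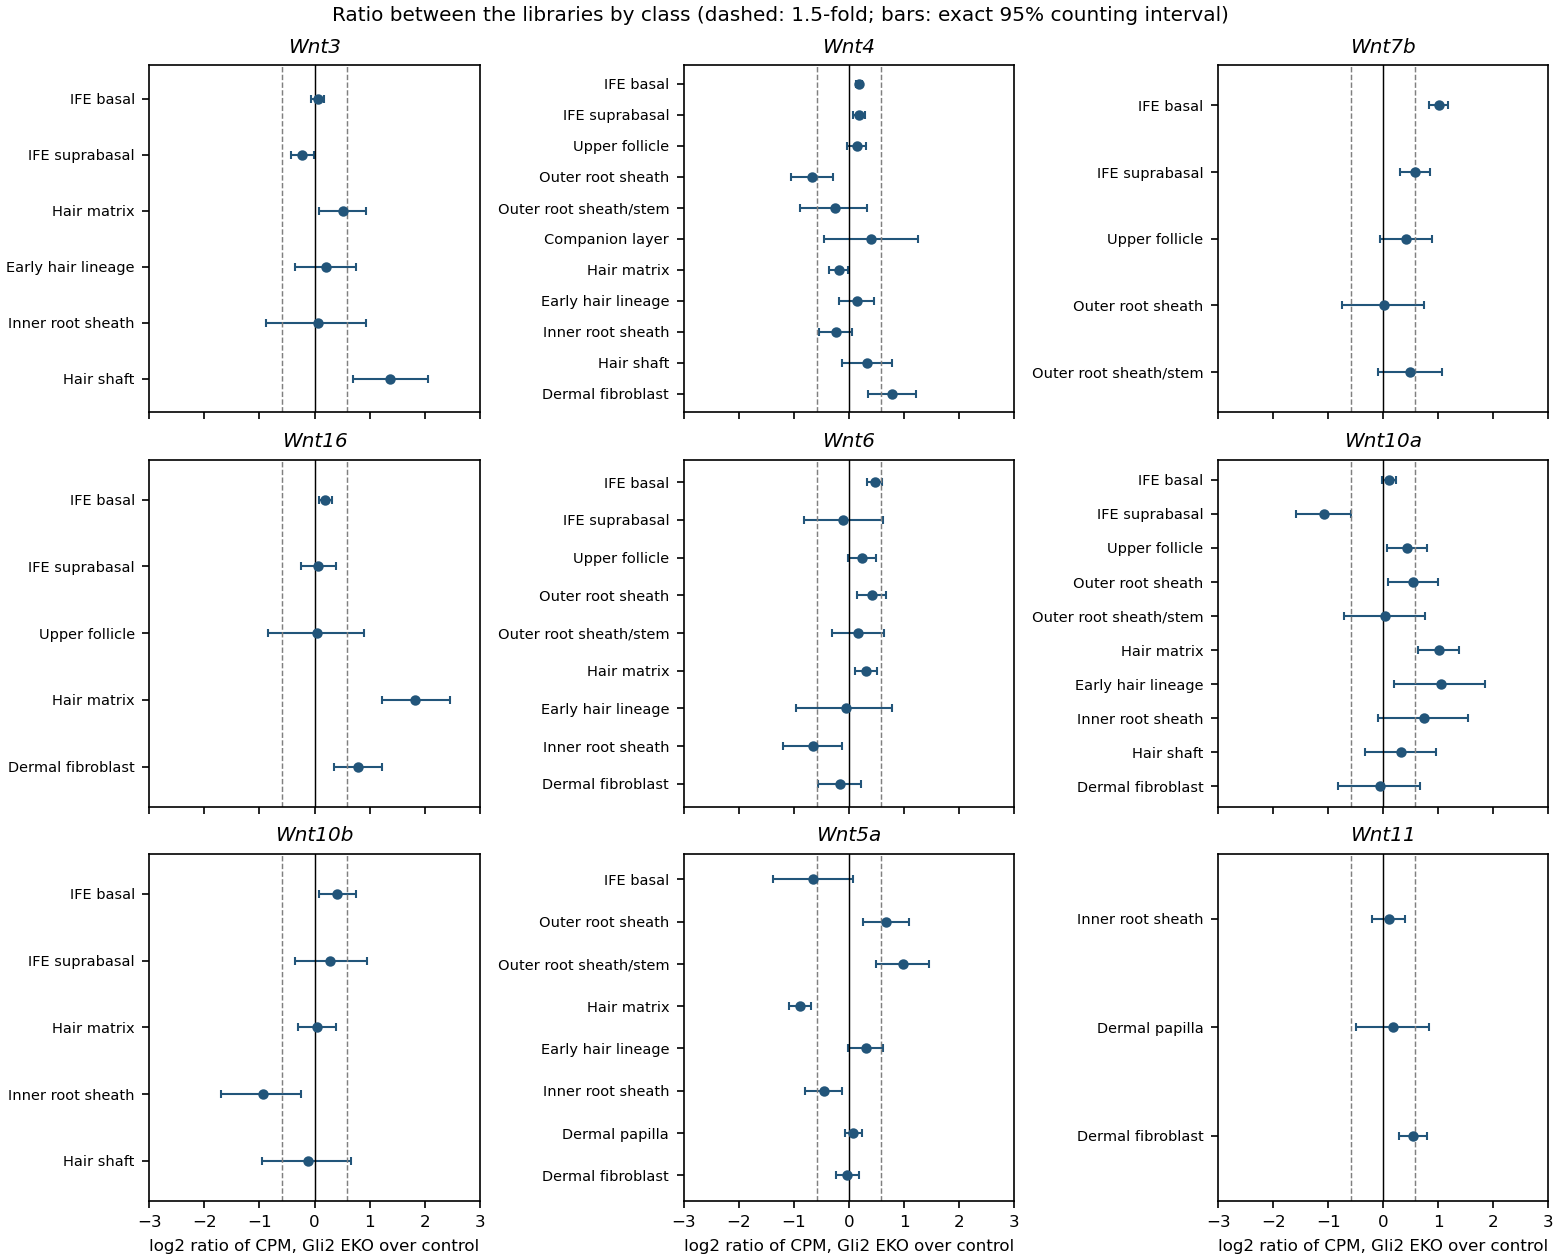
Log2 ratio of Gli2 EKO over control for each Wnt ligand by cell class, with bars for the exact 95% counting interval and lines at 1.5-fold. Shown are epidermal, follicle and dermal classes with 50 or more UMIs in the 2 libraries together. Other classes, such as melanocytes, are not shown. Wnt7b in IFE basal cells (1.01), Wnt16 and Wnt10a in the hair matrix (1.83 and 1.01) lie to the right and Wnt5a in the hair matrix (-0.89) lies to the left.

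Wnt7b in the basal epidermis was the clearest difference. It stood at 44.0 CPM in control (387 UMIs, 39.7 to 48.6) and 88.4 CPM in Gli2 EKO (967 UMIs, 82.9 to 94.1), a log2 ratio of 1.01 (0.84 to 1.18). The difference was as large in the non-dividing cluster (53.0 and 102 CPM) as in the dividing one (36.6 and 75.0 CPM). After thinning, 7.62% of control and 15.7% of Gli2 EKO basal cells had a Wnt7b UMI. Among the 8 members with enough UMIs in IFE basal cells, Wnt7b was the 1 higher and Wnt5a, at 39 and 31 UMIs with an interval that includes 0 (-1.37 to 0.07), the 1 lower, against 4.97% and 9.06% of genes.

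Other genes of the IFE basal class, chosen after their values were seen, also differed between the libraries. Lef1, the Wnt effector of hair germs, stood at 57.3 and 139.9 CPM in the 2 libraries, the Hedgehog target Ptch1 at 44.0 and 133 CPM, and Dcn, which was among the leading genes of the matrix cluster here, at 25.2 and 167 CPM. In the basal cells with no Lef1 or Dcn UMI, 263 in control and 229 in Gli2 EKO, Wnt7b had 36.7 and 68.4 CPM, a log2 ratio of 0.90 (0.59 to 1.21). Wnt6, which was 1.38-fold higher over all basal cells, had 79.8 and 90.1 CPM in them, and Wnt4 526 and 518 CPM. A cell without a UMI of Lef1 or Dcn can still hold their RNA, and Ptch1 was not used in this choice. The part of cells with Lef1, Ptch1 or Dcn in the Wnt7b ratio was not tested.

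In the hair matrix, the dividing cells that feed the growing hair, 2 of 9 members were higher in Gli2 EKO (Wnt10a and Wnt16) and 1 lower (Wnt5a), against 7.35% and 10.3% of genes. Wnt16 had 39 UMIs in control, or 5.63 CPM (4.004 to 7.70), and 58 UMIs in Gli2 EKO, or 20.02 CPM (15.2 to 25.9), a log2 ratio of 1.83 (1.22 to 2.45). Wnt16 was highest in the IFE basal class. Of the 7 markers of that class, 5 were higher by 1.5-fold or more in Gli2 EKO matrix cells and 0 lower. The sum of the 7 was 1318 and 3178 CPM, most of it from Krt14 (474 and 1564 CPM) and Krt5 (736 and 1451 CPM). Krt14 is not particular to the IFE, and stood at 4654 and 5479 CPM in the upper follicle. Thbs1 (21.2 and 28.3 CPM) and Itgb4 (41.1 and 50.1 CPM) were within 1.5-fold. The share of matrix cells with a UMI of Shh was 21.9% and 35.3%. The part of these shifts in the Wnt16 ratio was not tested. Wnt10a stood at 19.9 CPM (16.7 to 23.5) and 40.0 CPM (33.1 to 48.0), a log2 ratio of 1.01 (0.64 to 1.37). Wnt5a stood at 156 CPM (147 to 166) and 84.2 CPM (74.0 to 95.5), a log2 ratio of -0.89 (-1.10 to -0.69). Wnt4, Wnt6 and Wnt10b, other members with many matrix UMIs, were within 1.5-fold, at 147 and 129, 90.1 and 112, and 34.8 and 35.9 CPM. Wnt3, with 203 matrix UMIs, was within it at 18.3 and 26.2 CPM. Its log2 ratio ranged from 0.43 to 0.79 over the settings, so it passed 1.5-fold under some. Wnt7b (4.48 and 4.83 CPM) and Wnt11 (3.61 and 3.80 CPM) were also within 1.5-fold.

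A finer clustering of all cells, in which more cells were named matrix, gave 3 matrix clusters. They are named here by leading genes other than Dcn, Mt1 and Mt2, which were leading genes of both the first and the second. The first is named by Shh and Myb (203 control and 85 Gli2 EKO cells), the second by Cldn10 and Ube2c (186 and 71 cells). The third is named by Sox5 and Bach2 (110 and 30 cells). Shh and Myb were also among the 10 leading genes of the second, so the names do not set cells with Shh apart. Shh stood at 131 and 103 CPM in the first and at 61.5 and 131 CPM in the second. Wnt5a was lower in Gli2 EKO in the first (106 and 70.1 CPM) and the second (208 and 104 CPM), and its intervals overlapped in the third (317 and 280 CPM). Wnt10a differed most in the second, with 17.0 and 47.5 CPM. In the first its intervals overlapped (25.5 and 37.0 CPM), and in the third it had 12.7 and 6.35 CPM from 9 and 1 UMIs. Also in the second, Wnt3 (14.8 and 29.8 CPM) and Wnt6 (79.4 and 125 CPM) were higher and Wnt4 (174 and 131 CPM) lower. Wnt16 had 2.75 CPM there in control from 10 UMIs and 24.8 CPM in Gli2 EKO from 35 UMIs, and 10.9 and 17.7 CPM in the first cluster, where the intervals overlapped. In the third cluster Wnt16 had 0 UMIs in control and 31.8 CPM in Gli2 EKO, from 5 UMIs that all came from 1 cell. The cells of a cluster also differed between the libraries in other genes. In the second cluster Shh was found in 24.2% and 45.1% of cells. Sostdc1, a leading gene of the upper follicle cluster, stood there at 18.7 and 73.8 CPM, and it was higher in Gli2 EKO in the other clusters too. The part of such shifts in the ligand ratios was not tested.

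**Figure D4:**
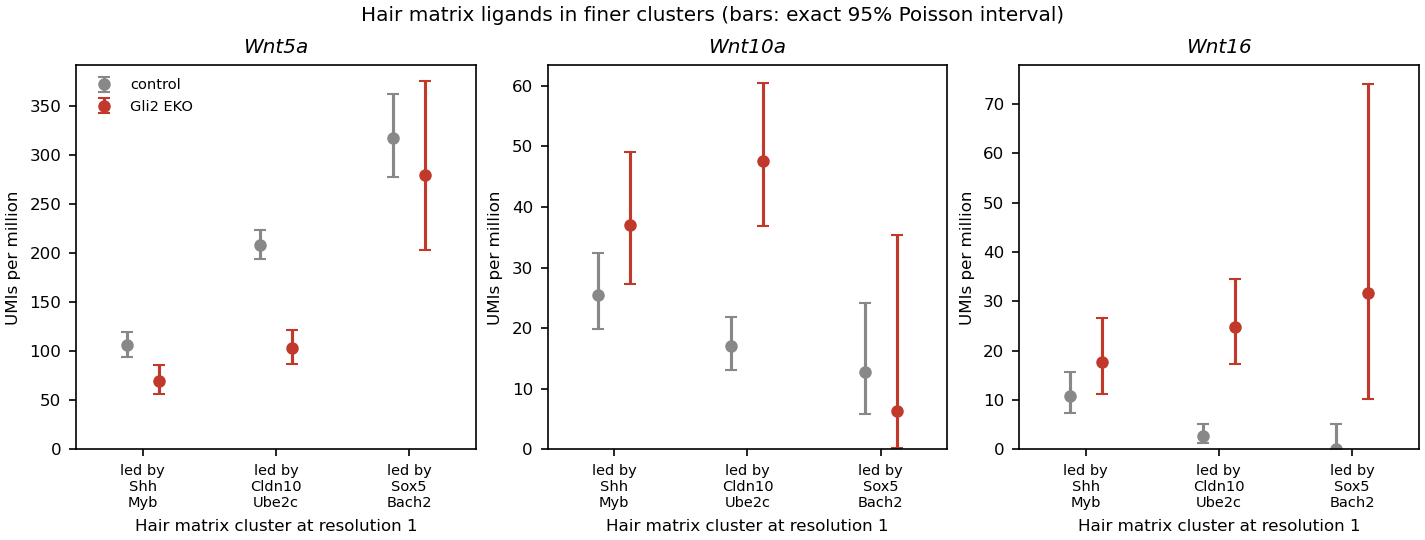
Level of Wnt5a, Wnt10a and Wnt16 (CPM) in 3 finer clusters of the hair matrix, in the control and the Gli2 EKO library. The clusters are named by leading genes other than Dcn, Mt1 and Mt2. In the cluster named by Cldn10 and Ube2c, Wnt5a is lower (208 and 104 CPM) and Wnt10a (17.0 and 47.5 CPM) and Wnt16 (2.75 and 24.8 CPM) are higher in Gli2 EKO.

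Few matrix cells carried Wnt16. In control 18 of 424 cells had a UMI (4.25%) and in Gli2 EKO 26 of 170 (15.3%), where the median depths of the class were 16799 and 15790.5 UMIs. In control, 17 of these 18 cells also had a UMI of Shh, the Hedgehog ligand, compared with 18.7% of the other matrix cells, and 88.9% had Wnt10b, compared with 17.7%. In Gli2 EKO, 76.9% had Shh, compared with 27.8%. The Wnt16 cells of Gli2 EKO also often had Sox6 (65.4%, compared with 15.97% of the others) and Krt15 (84.6% and 43.1%) and the basal marker Thbs1 (46.2% and 18.75%), and fewer had Wnt5a (19.2% and 45.8%). In control the same shares were 16.7% and 7.14% for Sox6, 50% and 43.8% for Krt15, 5.56% and 12.3% for Thbs1 and 55.6% and 60.8% for Wnt5a. The genes set beside Wnt16 here were chosen after the matrix values were known.

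Over the whole follicle, Wnt16 stood at 3.70 and 7.19 CPM, a log2 ratio of 0.96 (0.56 to 1.35), and Wnt5a at 66.6 and 44.3 CPM, a log2 ratio of -0.59 (-0.72 to -0.46). The follicle clusters had different shares of the cells in the 2 libraries. With Gli2 EKO clusters weighted to their control shares, the ratio of Wnt16 was 1.11 and that of Wnt5a -0.26, so that the follicle-wide value of Wnt5a moved with the cluster shares. It also stood at -0.55, inside 1.5-fold, with edgeR's TMM factors. In the opposite direction, Wnt5a was higher in Gli2 EKO in the outer root sheath/stem cells, at 37.4 CPM (29.0 to 47.4) and 73.4 CPM (58.2 to 91.4).

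In the dermis, Wnt4 stood at 10.6 and 17.1 CPM (105 and 113 UMIs), a log2 ratio of 0.68 (0.29 to 1.08), and Wnt16 at 10.54 and 18.0 CPM (104 and 119 UMIs), a log2 ratio of 0.77 (0.38 to 1.16). Most of these UMIs were in fibroblasts, with 84 and 97 for Wnt4 and 84 and 98 for Wnt16. The ratio of Wnt16 was 0.38 with the clusters weighted to control shares, and that of Wnt4 0.41 with the finer clustering. Wnt5a was level over all fibroblasts (57.3 and 56.2 CPM), but in the cluster led by Coch and Nrg1 it had 79.7 and 33.7 CPM, a log2 ratio of -1.24 (-1.85 to -0.67).

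Summed over all cells of a library, 5 of 9 members were higher in Gli2 EKO (Wnt3, Wnt4, Wnt7b, Wnt10a and Wnt16) and 0 lower, where 5.68% and 11.2% of genes were. Wnt4 for instance had a log2 ratio of 0.62 over all cells but 0.18 within the basal epidermis, and Wnt3 0.65 and 0.06. In such a sum, more cells of a type and more RNA per cell cannot be told apart, and the share of epidermal cells was 17.1% in control and 33.3% in Gli2 EKO. Over all cells the median log2 ratio of genes was -0.12, and in the epidermal, follicle and dermal cells it was -0.08, -0.06 and -0.01.

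Of the other 10 Wnt genes, Wnt5b had the most transcripts. With 3921 UMIs it exceeded 6 of the 9 members, and it was found mainly in outer root sheath/stem cells (239 and 202 CPM) and the outer root sheath (105 and 90.2 CPM), where the 9 members together had 92.9 and 102 CPM. Wnt3a had 535 UMIs, with 22.2 and 22.6 CPM in IFE basal cells, and Wnt9a had 286. Wnt7a, a close relative of Wnt7b, had 241 UMIs, and in IFE basal cells it stood at 4.55 and 13.8 CPM, a log2 ratio of 1.60 (1.09 to 2.14).

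Other genes of the pathway were counted from a list of 52 genes for ligand processing, receptors, secreted inhibitors, the R-spondin axis and the response inside the cell. In epidermal cells 40 had at least 20 UMIs, of which 2 were higher (5%) and 8 lower (20%) in Gli2 EKO, against 4.91% and 10% of all genes. The 2 with the highest log2 ratio were Kremen2, a receptor for Dkk inhibitors (23.7 and 49.2 CPM), and Lef1 (53.1 and 97.4 CPM). The 2 lowest were Fzd4, a Frizzled receptor (1.36 and 0.342 CPM), and Lgr5, a receptor for R-spondins (15.0 and 4.10 CPM). Wls and Porcn, through which the ligands leave the cell, were within 1.5-fold, at 312 and 275 CPM and at 6.72 and 7.29 CPM.

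In follicle cells 45 of the 52 had enough UMIs, 4 higher and 4 lower (8.89% each), near the 6.29% and 8.34% of all genes. Sfrp2, a secreted inhibitor (1.22 and 3.49 CPM), and Sp5, a transcriptional target (2.21 and 5.04 CPM), had the highest ratios, and Sfrp5 (0.727 and 0.201 CPM) and Rspo1 (3.21 and 1.48 CPM) the lowest. In dermal cells 47 had enough UMIs, 6 higher (12.8%) and 7 lower (14.9%), against 5.36% and 7.03% of all genes. Tcf7, a partner of beta-catenin (46.9 and 116 CPM), and Nkd1, a feedback target (83.7 and 159 CPM), had the highest ratios there, and Rnf43, which removes Frizzled receptors (3.85 and 0.755 CPM), and Sostdc1, a secreted inhibitor (201 and 69.4 CPM), the lowest.

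For each member, the genes with the most similar pattern were sought among 11379 genes by Pearson's r of log2(CPM + 1) over 18 classes of the control library. The 18 points share a library and differ in depth, so r is a description. In Gli2 EKO the endothelial class held only 7 cells and the Schwann class 4, and their part in r was not tested. Wnt7b was most like the basal keratins Krt15 (r = 0.94 in control and 0.91 in Gli2 EKO) and Krt5 (0.91 and 0.85). Porcn was among the 3 genes closest to Wnt5a (0.85 and 0.76).

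Wnt6 was most like Ptn (0.87 and 0.82) and Edar (0.85 and 0.65), and Wnt4 like Ass1 (0.90 and 0.61), Klrg2 (0.89 and 0.84) and Edaradd (0.88 and 0.79), where Edar and Edaradd are the receptor and adaptor of the ectodysplasin pathway of skin appendages. Wnt3 was most like Tgm3, a transglutaminase of the differentiating epidermis and hair (0.91 and 0.73), Wnt16 like Pdgfc (0.80 and 0.40) and Wnt10b like Gar1 (0.88 and 0.48), with the hair transcription factor Sox21 also among its 3 closest (0.85 and 0.84). The closest gene to Wnt10a was Thap4 (0.85 and 0.60) and that to Wnt11 was B3gntl1 (0.75 and 0.51). In Gli2 EKO, where these genes had not been chosen, r was lower for each of the genes above. It was higher there for H60c, among the 3 closest to Wnt7b (0.91 and 0.96), Eif3e for Wnt10a (0.82 and 0.90) and Lrrc20 for Wnt11 (0.75 and 0.80).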

How the data were processed

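Epidermal whole mounts of back skin at postnatal day 2 were dissociated and their polyadenylated RNA was sequenced from the 3′ end after droplet capture, with 1 library per genotype. The authors made the deposited UMI counts with Cell Ranger 9.0.1 against GRCm39 and the GENCODE M30 annotation, and deposited the filtered matrices as whole, unnormalised counts per gene and cell.

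From these counts, cells with over 1000 and under 8000 genes and under 15% mitochondrial UMIs were kept. Scrublet (scanpy 1.11.5) scored doublets. Its automatic threshold marked 5 Gli2 EKO and 261 control cells, so the 8% with the highest score were removed in each library instead. The study used another doublet caller, so cell numbers and rebuilt class names can differ from its own. Cells were clustered in Seurat 5.3.0 (2000 variable genes without the Wnt pathway genes, 20 principal components, a Harmony correction between libraries written for this work, resolution 0.5), and keratinocytes were clustered again. A cluster was named from markers if its best score reached 0.5, at least 3 markers were detected and no other class had more of its markers among the 10 leading genes. One keratinocyte cluster of mixed hair lineages was split further. Clusters in which the markers of a non-keratinocyte class were detected in over 40% of cells on average had been clustered apart from the keratinocytes. The 0.5 limit, the 40% limit and the split were chosen after seeing the data.

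For each library, a gene's UMIs in a class were totalled and scaled by all UMIs of the same cells to counts per 1000000 (CPM). Intervals were exact Poisson for CPM, Clopper-Pearson for shares and conditional binomial for ratios, at 95% confidence (SciPy 1.17.1), and a share of 0 was given a limit of 3 counts. Each genotype had a single library, so there is neither a test nor a p-value. Scripts were tested on simulated data. The edgeR 4.0.16 TMM and DESeq2 1.42.0 factors were used as other scalings only. Other settings changed the doublet removal, resolution, integration, cell filter, thinning, fold and UMI minimum. All 9 members were considered in every comparison, but the text on single classes and on pairs names only some of them. Other Wnt genes were named from 100 UMIs, and of the other pathway genes the 2 highest and 2 lowest ratios per compartment. The members and lists were chosen with earlier results of these data known. Promoter windows were taken from RefSeq. For Wnt5a, 1 result on genes of similar pattern is not reported here.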

Additional observations from a re-analysis of the deposited data

Results flagged for a closer look

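For 3 ligands the libraries differed in one direction in some classes and in the opposite direction in others, among classes with 50 or more UMIs in the 2 libraries together. The difference between the classes was not tested, since each genotype had 1 library. Log2 ratios are Gli2 EKO over control.

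Wnt4 was higher in Gli2 EKO in fibroblasts (0.78, from 84 and 97 UMIs) and lower in melanocytes (-1.13, from 48 and 15 UMIs) and in the outer root sheath (-0.67, from 243 and 79 UMIs). In melanocytes and in the outer root sheath the most UMIs in a single control cell were 8 and 15. The part of such cells in these ratios was not tested.

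Wnt5a was lower in the hair matrix (-0.89) and higher in the outer root sheath/stem cells (0.97) and in the outer root sheath (0.67). The last value was -0.35 with the stricter cell filter and 0.20 without doublet removal.

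Wnt10a was higher in the hair matrix (1.01) and the early hair lineage (1.04, from 40 and 20 UMIs in 150 and 55 cells) and lower in suprabasal cells of the IFE (-1.08, from 93 and 56 UMIs). In suprabasal cells the ratio ranged from -2.37 to -0.82 over the other settings.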

How the results depend on the processing

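Of the log2 ratios recomputed under other settings, 840 stayed within the counting interval of the reported value, 59 left it and 2, past 1.5-fold as reported, turned their direction. Values reported within 1.5-fold took the other sign 74 times, inside the interval or outside it, which is not counted as a turn. Outside it, in basal cells without a Lef1 or Dcn UMI, Wnt3 stood at -0.22, Wnt4 at -0.02 and Wnt16 at -0.22, and suprabasal Wnt10b reached -1.21 with cluster resolution 1. Wnt5a turned to -0.35 in the outer root sheath with the stricter cell filter, and to 1.21 in IFE basal cells without a Lef1 or Dcn UMI, there on 8 and 15 UMIs; the cause was not tested. Wnt7b in IFE basal cells ranged from 0.90 to 1.10, and in the hair matrix Wnt16 ranged from 1.80 to 1.98, Wnt5a from -0.96 to -0.87 and Wnt10a from 0.71 to 1.03. The class with the highest level was the same in 48 of 54 repeats of the clustering.

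The counts of members past 1.5-fold moved more, since several ratios lay near that limit. Higher members in epidermal cells numbered 2 with cluster resolution 1, with no integration and with the Wnt pathway genes allowed in the clustering (Wnt6 in addition). In follicle cells they numbered 3 with no doublet removal, the automatic doublet threshold, no integration, the stricter cell filter and the Wnt pathway genes allowed, and 2 with edgeR TMM factors, DESeq2 size factors and clusters weighted to control shares. In dermal cells they numbered 4 with no doublet removal and with a minimum of 1 UMI, and 1 with cluster resolution 1 and with weighted clusters. Lower members numbered 0 in epidermal cells with the automatic doublet threshold, 0 in follicle cells with TMM factors, DESeq2 size factors and weighted clusters, and 1 in dermal cells with a minimum of 1 UMI. With a fold of 2, all 6 counts were 0.

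Counting unnamed keratinocytes with the follicle and leaving out basal cells with Lef1 or Dcn UMIs were added after seeing the data. In the first, follicle Wnt5a stood at -0.57 and Wnt10a at 0.61. No paired analysis was possible because each genotype had 1 library, and for the same reason no replicate could be left out. Wnt16 in the outer root sheath rested on 19 and 1 UMIs, and its ratio of -3.29 was -0.29 without doublet removal; the cause was not tested.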
